A study of Rattus norvegicus with 12 samples.

Results

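Kidney gene expression was compared between heterozygous affected and wild type males of the PKD/Mhm rat line, a comparison that uses 6 of the 12 arrays in the series. The members were chosen by their labels alone: 3 wild type males and 3 heterozygous affected males. All 6 rats belonged to the PKD/Mhm line and were 36 days old, and the design text calls the wild type rats littermates of the affected ones. The left kidney was snap frozen, total RNA was extracted with Trizol, and each kidney was hybridised to 1 Affymetrix array, so every value averages over all cell types of a whole kidney. The labels give the disease state of a rat and name no cyst count or kidney function, and they number the rats of a group as biological replicates. The other 6 arrays, 3 wild type and 3 heterozygous affected females of the same age, entered the model to share its estimate of the spread and serve here for 1 comparison near the end.

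In polycystic kidney disease, tubule segments widen into fluid-filled cysts lined by a flattened or proliferating epithelium, while the tissue between them gains matrix, fibroblasts and immune cells. Tubule cells in such kidneys are known to rebuild their actin skeleton, to re-express keratins and to lose part of the transport and oxidative machinery of the mature nephron. The PKD/Mhm line carries a variant of Anks6, which encodes a protein of the primary cilium; that gene is not analysed here, because no probe set is named for it in the annotation used.

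The deposited values are log2 signals, 1 per probe set and array. The medians of the 6 male arrays lay between 6.27 and 6.29, and 33.6% of their values lay under 6, where signals crowd on a floor and changes are compressed. Kidney identity was plain in the markers. Umod, the secreted protein of the thick ascending limb, read 13.18, 13.15 and 13.16 in the wild type and 13.05, 13.09 and 13.10 in the affected males, and the proximal phosphate carrier Slc34a1 read 12.98, 13.17 and 13.04 and 13.08, 13.02 and 12.60. The measured markers of T cells, B cells, neutrophils, mast cells, fat, adrenal cortex and skeletal muscle had means under 6.5 in both groups. The signal difference between the 3′ and 5′ probe sets of the actin control, a measure of RNA quality, was 0.87 to 0.99 in the wild type and 0.79 to 0.97 in the affected males.

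Affected male kidneys differed from wild type kidneys mainly by higher signals. Of 15866 probe sets 878 (5.53%) were called at an adjusted p under 0.05, with 753 (4.75%) higher and 125 (0.788%) lower in the affected males, and in all 878 the 3 affected values lay on 1 side of the 3 wild type values. Such separation held for 3942 of all probe sets (24.8%), so it was common without a call too. The calls that named 1 gene covered 728 different genes, 618 higher and 110 lower. Most changes were small. The median was 0.33 log2 among calls that were higher and -0.28 among those that were lower; 34 calls exceeded a rise of 1 log2, which is 2-fold, and 1 exceeded such a fall.

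The balance of rises and falls depended on the scaling of the arrays. As deposited, 85.8% of the calls were higher; after quantile normalization there were 497 higher and 284 lower, or 63.6% higher. With the spread estimated from the 6 male arrays alone, 190 probe sets were called, 172 of them also called with 12 arrays. The rule for naming genes selects, by coincidence, 190 of the calls made with 12 arrays, and 58 of these passed with the 6 male arrays alone. Called signals were also brighter than average: of probe sets with a mean level of 10 or more, 15.9% were called higher and 3.19% lower, against 12.6% and 1.85% between 8 and 10, 5.89% and 0.929% between 6.5 and 8, and 1.93% and 0.342% under 6.5.

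**Figure D1:**
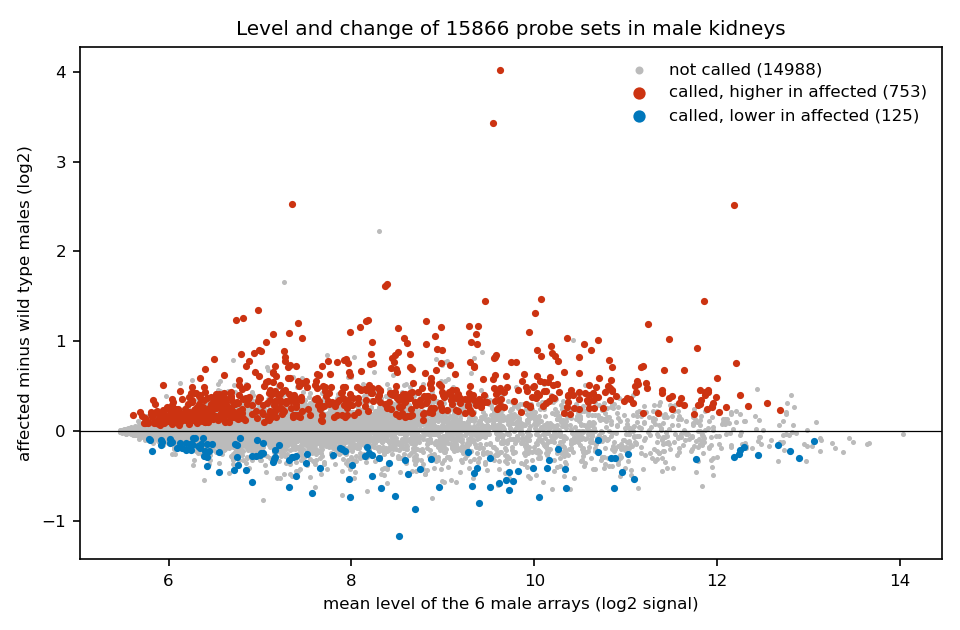
Change against level for 15866 probe sets. The horizontal axis is the mean log2 signal of the 6 male arrays and the vertical axis the affected minus wild type difference (log2); grey points were not called, red points (753) were called higher and blue points (125) lower in affected males. Calls thin out towards the floor on the left, where values are compressed.

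Genes were grouped into 64 lists of pathways and cell types, each gene standing by its brightest probe set. Over all 10411 genes 5.57% were called higher and 0.97% lower, the median change was 0.01 log2, and 59.67% of genes had a change above 0. Each list below is to be read against these shares and against the rise of calls with level given above. Where leaving out 1 male array, or the female arrays, moves a count of 5 or more by over 1.5 times, the other counts are given.

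**Figure D2:**
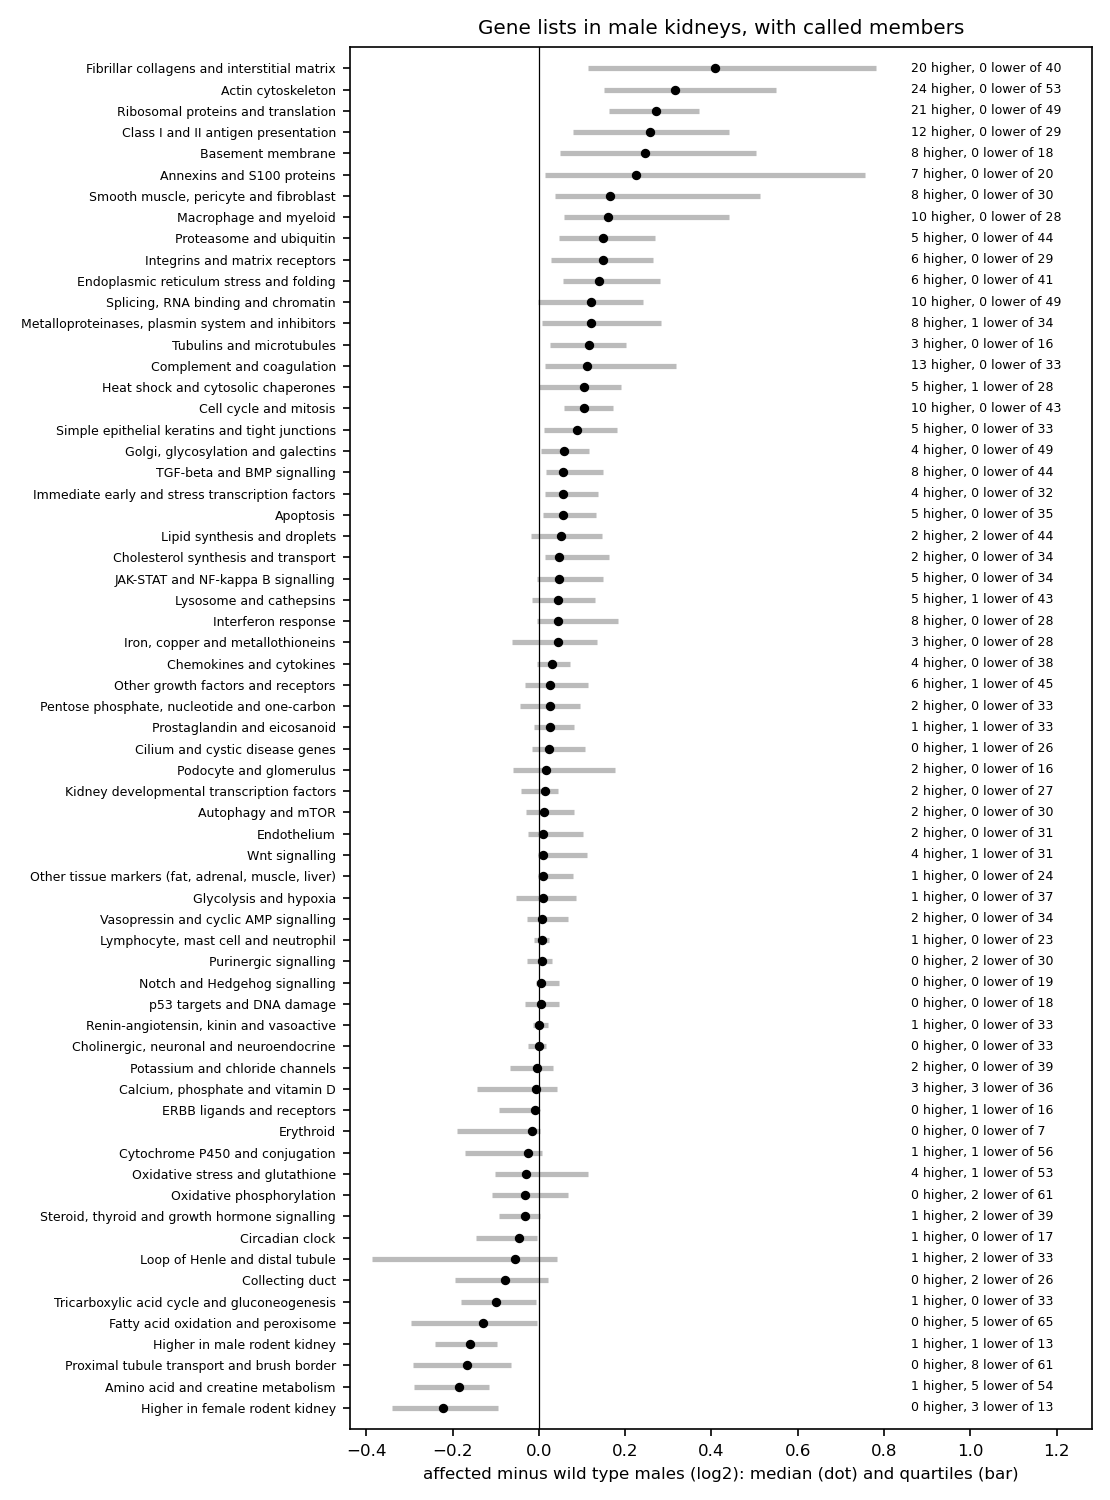
Change of 64 gene lists in male kidneys. Each dot is the median over a list's measured genes of the affected minus wild type difference (log2), each bar spans the quartiles, and the text at the right gives the called members. Matrix, actin, ribosomal and antigen presentation lists lie farthest to the right; genes biased to either sex, amino acid metabolism and proximal tubule genes lie at the left.

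The actin cytoskeleton stood high in affected males: 24 of its 53 measured genes (45.3%) were higher and 0 lower, with a median change of 0.32 log2. Tpm1, a tropomyosin that lies along the actin filament, read 7.62, 7.42 and 7.66 in the wild type and 8.46, 8.89 and 9.06 in the affected males, a 2.36-fold rise (log2 difference ± standard error 1.24 ± 0.16, adjusted p = 0.00407). All 3 affected kidneys exceeded all wild type kidneys by a wide gap, and replicate 1 was the lowest of the affected. A second Tpm1 probe set gave 1.26 log2, while the other 4, which lie near the floor, differed by 0.05 or less. Actn1, an alpha-actinin that ties filaments to adhesion sites, read 7.49, 7.38 and 7.66 and 8.44, 8.69 and 8.88 (1.15 ± 0.13, adjusted p = 0.0027), again without overlap. Tagln, an actin-bundling protein of smooth muscle, rose 3.06-fold (1.61 ± 0.30, adjusted p = 0.0155), and the intermediate filament protein Vim, typical of mesenchymal and dedifferentiated epithelial cells, rose 1.96-fold (0.97 ± 0.19, adjusted p = 0.0191).

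The further members named were chosen after their values were seen. The heavy chain of non-muscle myosin, Myh9, read 9.89, 10.09 and 10.24 in the wild type and 10.82, 10.85 and 11.01 in the affected males (0.82 ± 0.11, adjusted p = 0.00416). Tagln2, a broadly expressed relative of Tagln, rose by 0.90 ± 0.10, adjusted p = 0.00254. Zyx, a focal adhesion protein, rose by 0.58 ± 0.07, adjusted p = 0.00311. Each of these had its lowest affected value above its highest wild type value. The thymosin Tmsb4x, which binds actin monomers, and the tropomyosin Tpm4 rose by 0.46 and 0.87 log2. Acta2, the actin of smooth muscle and myofibroblasts, was not called: it read 8.35, 8.36 and 8.86 and 8.93, 9.13 and 9.91 (adjusted p = 0.0859), with affected replicate 3 far above the others. The count of actin genes called higher was 14 without wild type replicate 2 or affected replicate 3 and 8 with the 6 male arrays alone. Leaving out single male arrays ended the calls of Tagln without wild type replicate 2 or affected replicate 3 (highest adjusted p 0.0538), Vim without wild type replicate 1 or 2 or affected replicate 3 (highest adjusted p 0.0732), and Pdgfrb without wild type replicate 1, 2 or 3 or affected replicate 1 or 3 (highest adjusted p 0.142). The dimmer Actn1 probe set, which rose by 0.78 log2, lost its call without wild type replicate 1 or 2 (highest adjusted p 0.0594). The smooth muscle markers moved with this list: 2 of their 5 genes (Tagln and Pdgfrb) were higher, their summed linear signal was 704 to 1029 in wild type and 1178 to 2065 in affected males, Pdgfrb and Des had means under 6.5, and Myh11, the myosin of mature smooth muscle, read 7.34, 6.81 and 7.39 and 7.06, 7.33 and 7.58. Their part in the result was not tested. In a whole kidney, more cells of a type and more RNA per cell cannot be told apart.

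Microtubule and epithelial genes followed in smaller number. Tubb5, a beta-tubulin, was called by both of its probe sets. The brighter one read 9.57, 9.48 and 9.68 in the wild type and 10.20, 10.44 and 10.80 in the affected males (0.90 ± 0.15, adjusted p = 0.0095), and the dimmer one rose by 1.22 ± 0.19, adjusted p = 0.00707. It was accompanied by Map1lc3a, which marks autophagosomes (0.31 ± 0.05, adjusted p = 0.00636), and by the microtubule-associated protein Map4 (0.12 log2). In all, 3 of 16 tubulin and microtubule genes (18.8%) were higher. Of 33 keratin and tight junction genes 5 (15.2%) were higher and 0 lower. Krt8, a keratin of simple epithelium, read 7.68, 7.74 and 7.94 and 8.56, 8.38 and 8.97 (0.85 ± 0.13, adjusted p = 0.00801), with affected replicate 3 the highest. Krt7 and Krt19, keratins of ducts, rose by 0.36 and 0.36 log2. The count of keratin and junction genes called higher was 3 without affected replicate 3 and 1 with the 6 male arrays alone. Calls that ended without a single male array were Map4 without wild type replicate 1, 2 or 3 or affected replicate 1 or 3 (highest adjusted p 0.12), Krt7 without affected replicate 3 (highest adjusted p 0.0591), and Krt19 without wild type replicate 1 or 2 or affected replicate 3 (highest adjusted p 0.0927).

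Annexins and S100 proteins, calcium-binding proteins that attach to membranes and to the actin skeleton, were called higher for 7 of 20 genes (35.0%) and lower for 0. S100a11 read 11.10, 10.79 and 10.97 in the wild type and 11.75, 11.93 and 12.27 in the affected males, a 2.04-fold rise (1.03 ± 0.14, adjusted p = 0.00525). Anxa5, which binds phosphatidylserine, read 10.23, 10.09 and 10.23 and 11.04, 11.18 and 11.38 (1.01 ± 0.13, adjusted p = 0.00327). In both genes affected replicate 3 was the highest and no affected value came near the wild type range. S100a10 and Anxa2, which bind each other at the cell membrane, rose together by 0.99 ± 0.12 (adjusted p = 0.00288) and 0.94 ± 0.13 (adjusted p = 0.0044), and Anxa1, an inhibitor of phospholipase A2, rose by 0.74 ± 0.10 (adjusted p = 0.00525). These 5 calls held when any 1 male array was left out. The count of annexins and S100 genes called higher was 3 with the 6 male arrays alone. The neutrophil members S100a8 and S100a9 stayed at the floor, at 5.52, 5.58 and 5.57 and 5.62, 5.62 and 5.64 in the affected males.

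**Figure D3:**
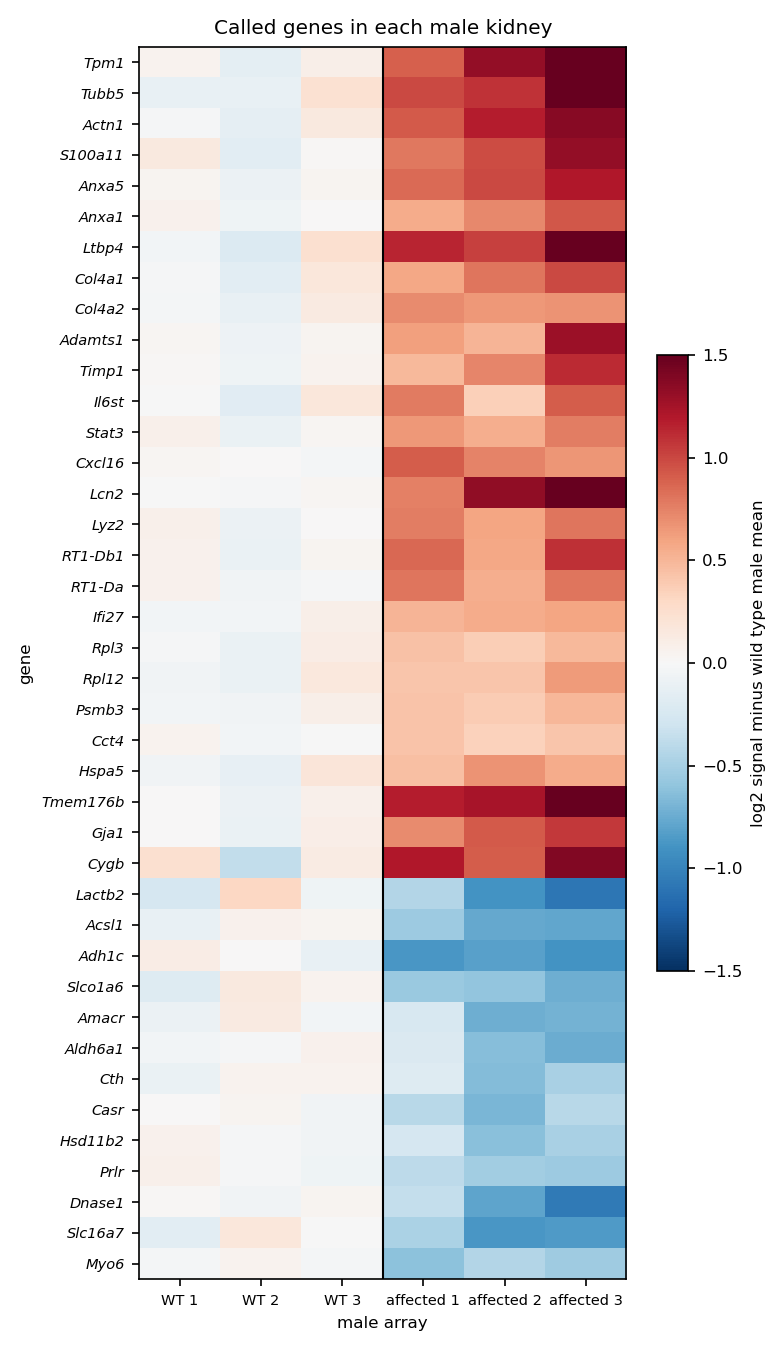
Called genes in each male kidney. Rows are 40 genes discussed in the text, columns the 3 wild type (WT) and 3 affected males, and the colour is the log2 signal minus the wild type male mean, red above and blue below; colours stop at the ends of the scale. Every affected array lies on the same side of the wild type arrays for each gene, and affected replicate 3 is often the most strongly coloured.

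Genes of protein synthesis showed many small rises. Of 49 ribosomal and translation genes 21 (42.9%) were higher and 0 lower, with a median change of 0.27 log2 and quartiles of 0.16 and 0.37. Rpl3, a core protein of the large subunit, read 11.67, 11.59 and 11.79 in the wild type and 12.12, 12.05 and 12.17 in the affected males (0.43 ± 0.06, adjusted p = 0.00541). Rpl12, at the factor-binding stalk base, and Rplp0, the stalk protein that anchors the acidic P proteins, rose by 0.49 ± 0.09, adjusted p = 0.0117 and by 0.46 ± 0.08, adjusted p = 0.0106. The small-subunit protein Rps28 rose by 0.45 ± 0.09, adjusted p = 0.0164. These 4 rises were small, 1.35- to 1.41-fold, and their groups did not overlap. The count depended on the fit: 12 were called after quantile normalization, and 16 with arrays centred on their medians, with 0 lower each time. The count of ribosomal genes called higher was 7 without wild type replicate 2, 8 without wild type replicate 1 or affected replicate 3 and 3 with the 6 male arrays alone. Leaving out 1 male array ended the calls of Rpl12 without wild type replicate 2 (highest adjusted p 0.0552), and Rps28 without wild type replicate 1 or 2 (highest adjusted p 0.0631). Many ribosomal protein genes have near-identical processed copies, and probes can read several of them at once.

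Chaperones and the endoplasmic reticulum followed with fewer calls. Of 41 endoplasmic reticulum genes 6 (14.6%) were higher and 0 lower, median 0.14. Hspa5, the chaperone BiP of the endoplasmic reticulum, read 9.54, 9.46 and 9.77 and 10.04, 10.26 and 10.15 (0.56 ± 0.08, adjusted p = 0.00468), all affected values above all wild type values. The disulfide isomerase Pdia6, the BiP partner Hyou1 and the retrieval receptor Kdelr2 rose by 0.49, 0.34 and 0.29 log2. Of 28 heat shock and cytosolic chaperone genes 5 (17.9%) were higher and 1 (3.57%) lower. Cct4 and Cct5, subunits of the TRiC ring that folds actin and tubulin, rose by 0.40 ± 0.06, adjusted p = 0.00832 and by 0.28 ± 0.05, adjusted p = 0.00904, the small heat shock protein Hspb1 by 0.54 ± 0.11, adjusted p = 0.0212 and the Hsp70-Hsp90 adaptor Stip1 by 0.32 ± 0.07, adjusted p = 0.0237. The single member that fell was the mitochondrial chaperonin Hspd1, which was chosen after its value was seen; it read 12.39, 12.31 and 12.37 and 12.21, 12.17 and 12.05 (-0.21 ± 0.05, adjusted p = 0.0389). After quantile normalization 2 chaperone genes were higher and 1 lower. The count of endoplasmic reticulum genes called higher was 2 without wild type replicate 2, 3 without affected replicate 3 and 1 with the 6 male arrays alone. The count of chaperones called higher was 2 without wild type replicate 1 or 2 or affected replicate 2 or 3 and 3 with the 6 male arrays alone. Calls that ended without 1 male array were Stip1 and Hspd1 without wild type replicate 1, 2 or 3 or affected replicate 2 or 3 (highest adjusted p 0.12), Pdia6 without wild type replicate 2 or affected replicate 3 (highest adjusted p 0.0674), Hyou1 without wild type replicate 1 or 2 (highest adjusted p 0.0631), and Hspb1 without wild type replicate 1 or 2 or affected replicate 2 or 3 (highest adjusted p 0.0737).

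Of 44 proteasome and ubiquitin genes 5 (11.4%) were higher and 0 lower, with a median of 0.15. Only 5 of the 44 had means under 6.5, and the share was no higher than that of all probe sets between levels 8 and 10. The proteasome subunit Psmb3 read 8.82, 8.81 and 8.94 and 9.28, 9.23 and 9.35 (0.43 ± 0.05, adjusted p = 0.0027). Psmb1, another subunit of its core, and the conjugating enzyme Ube2l3 rose by 0.30 and 0.30 log2. Of 49 splicing, RNA-binding and chromatin genes 10 (20.4%) were higher and 0 lower; the 4 of largest change were the spliceosome protein Snrpd2 (0.48 log2), the cold-shock protein Ybx3 (0.44), the nuclear ribonucleoprotein Hnrnpc (0.42) and the histone variant H2az1 (0.40). Under quantile normalization that list gave 5 higher and 1 lower. The count of proteasome and ubiquitin genes called higher was 2 without wild type replicate 1, 2 or 3, 3 without affected replicate 3, 9 without affected replicate 2 and 1 with the 6 male arrays alone. The count of splicing and chromatin genes called higher was 3 without wild type replicate 1 or 2, 5 without wild type replicate 3 or affected replicate 3 and 1 with the 6 male arrays alone. Single male arrays ended the calls of Psmb1, Hnrnpc and H2az1 without wild type replicate 1, 2 or 3 or affected replicate 1 or 3 (highest adjusted p 0.139), Ube2l3 without wild type replicate 1, 2 or 3 or affected replicate 1, 2 or 3 (highest adjusted p 0.137), Snrpd2 without wild type replicate 1 or 2 or affected replicate 3 (highest adjusted p 0.0593), and Ybx3 without wild type replicate 1, 2 or 3 or affected replicate 2 (highest adjusted p 0.16).

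Antigen presentation genes were higher in affected males for 12 of 29 measured genes (41.4%) and lower for 0, with a median of 0.26 log2. Class II molecules, which show peptides to helper T cells, and their chaperones made up 6 of the 12. The beta chain RT1-Db1 read 9.22, 9.05 and 9.20 in the wild type and 10.02, 9.73 and 10.25 in the affected males (0.84 ± 0.13, adjusted p = 0.00705), and the alpha chain RT1-Da read 10.56, 10.44 and 10.48 and 11.29, 11.03 and 11.29 (0.71 ± 0.10, adjusted p = 0.0044). RT1-Bb rose by 0.83 ± 0.14, adjusted p = 0.0102. Replicate 2 was the lowest of the affected males in all 3 genes and still exceeded every wild type male. Their partners, chosen after their values were seen, did likewise: the invariant chain Cd74 read 11.26, 11.32 and 11.33 and 11.96, 11.88 and 12.09 (0.67 ± 0.06, adjusted p = 0.00146), the alpha chain RT1-Ba rose by 0.44 log2 and the peptide exchange protein RT1-DMa by 0.42. Further probe sets of RT1-Db1, RT1-Bb and RT1-Ba differed by 0.06 or less. Class II genes of the rat have close relatives in one cluster, so a probe set may read more than 1 of them.

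The promoters of the class II chains are shown because these genes moved together and share a known element, the Y box, which the factor NF-Y binds. The 4 sequences are the 250 bases before each gene's start in RefSeq's GRCr8 annotation, read 5′ to 3′ on the gene's strand, with the Y box letters CTGATTGG in capitals. They lie at chr20:4576807-4577056 on the plus strand (RT1-Ba), chr20:4604119-4604368 on the minus strand (RT1-Bb), chr20:4515165-4515414 on the plus strand (RT1-Da) and chr20:4560163-4560412 on the minus strand (RT1-Db1).
RT1-Ba: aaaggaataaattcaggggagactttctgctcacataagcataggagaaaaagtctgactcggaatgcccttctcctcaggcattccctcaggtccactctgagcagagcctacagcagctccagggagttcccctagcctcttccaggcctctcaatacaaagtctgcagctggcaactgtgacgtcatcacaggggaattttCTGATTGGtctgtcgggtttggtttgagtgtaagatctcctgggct
RT1-Bb: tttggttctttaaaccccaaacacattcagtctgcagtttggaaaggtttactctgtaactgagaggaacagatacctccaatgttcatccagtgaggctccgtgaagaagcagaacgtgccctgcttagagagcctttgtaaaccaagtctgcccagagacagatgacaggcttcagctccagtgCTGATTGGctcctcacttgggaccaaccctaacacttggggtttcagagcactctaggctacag
RT1-Da: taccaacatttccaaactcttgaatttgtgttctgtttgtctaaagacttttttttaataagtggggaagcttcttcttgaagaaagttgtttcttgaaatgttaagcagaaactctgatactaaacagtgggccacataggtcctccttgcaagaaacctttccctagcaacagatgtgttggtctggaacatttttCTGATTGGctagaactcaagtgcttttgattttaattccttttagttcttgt
RT1-Db1: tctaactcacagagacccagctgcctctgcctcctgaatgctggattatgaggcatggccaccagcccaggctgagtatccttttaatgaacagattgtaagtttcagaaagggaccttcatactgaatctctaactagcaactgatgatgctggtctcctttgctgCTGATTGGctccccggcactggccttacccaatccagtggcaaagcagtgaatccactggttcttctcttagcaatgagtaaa
The first base of the element lies 46, 64, 52 and 83 bases before the start in RT1-Ba, RT1-Bb, RT1-Da and RT1-Db1. On either strand, these letters occurred in 1068 of 33469 promoter windows of the same length (3.19%). By symbol, 478 of the 580 genes called higher had a window and 27 of those (5.65%) held the letters, against 410 of 8630 (4.75%) among all measured genes with a window. In the antigen presentation list they were in 8 of 25 windows (32.0%), and among its 12 called members in these 4. A match is a description of letters, not of binding.

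The immunoproteasome, an alternative proteasome that cuts peptides for class I molecules, was also higher. Its activator subunit Psme2 read 8.23, 8.42 and 8.19 and 8.80, 8.90 and 9.27 (0.71 ± 0.11, adjusted p = 0.00846). The 3 catalytic subunits, chosen after their values were seen, lay near the floor in wild type and rose: Psmb8 by 0.62 ± 0.09, adjusted p = 0.00708, Psmb9 by 0.43 ± 0.08, adjusted p = 0.0164 and Psmb10 by 0.37 ± 0.04, adjusted p = 0.0022. Of 28 interferon-response genes 8 (28.6%) were higher and 0 lower, and 4 after quantile normalization. Lgals3bp, a secreted galectin-binding protein, read 6.79, 6.67 and 6.86 and 7.70, 7.62 and 8.28 (1.09 ± 0.17, adjusted p = 0.00707). Ifi27 rose by 0.56 ± 0.08, adjusted p = 0.00493 and the membrane protein Ifitm3, which blocks virus entry, by 0.84 ± 0.15, adjusted p = 0.0151. The list's median was 0.05 log2, so most of its members differed little. The count of antigen presentation genes called higher was 7 without wild type replicate 2 and 3 with the 6 male arrays alone. The count of interferon-response genes called higher was 3 without wild type replicate 2, 4 without wild type replicate 1, 5 without wild type replicate 3 or affected replicate 1 or 3 and 1 with the 6 male arrays alone. Leaving out 1 male array ended the calls of RT1-Ba without wild type replicate 1, 2 or 3 or affected replicate 1 or 3 (highest adjusted p 0.0919), RT1-DMa without wild type replicate 2 or 3 (highest adjusted p 0.0688), Psmb9 without wild type replicate 1 or 2 (highest adjusted p 0.0611), and Ifitm3 without wild type replicate 2 (highest adjusted p 0.0579).

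Macrophage genes were higher for 10 of 28 (35.7%), with 0 lower and a median of 0.16 log2. Lyz2, the lysozyme of macrophages, read 10.91, 10.75 and 10.84 in the wild type and 11.60, 11.42 and 11.63 in the affected males (0.72 ± 0.09, adjusted p = 0.00282). C1qa, a chain of complement C1q made by tissue macrophages, read 6.99, 6.74 and 6.86 and 7.64, 7.32 and 8.11 (0.83 ± 0.17, adjusted p = 0.0227), with affected replicate 3 the highest. Cybb, the phagocyte oxidase subunit, rose by 0.24 ± 0.03, adjusted p = 0.00345, and the colony stimulating factor receptor Csf1r, chosen after its value was seen, by 0.65 ± 0.14, adjusted p = 0.0262. Of the 6 macrophage markers 3 were higher (Csf1r, C1qa and C1qb), while Cd68, Cd14 and Aif1 had means under 6.5 in both groups; the summed linear signal of the 6 was 522 to 564 in wild type and 651 to 894 in affected males. The part of these markers in the class II changes was not tested. Of 23 lymphocyte, mast cell and neutrophil genes 1 was called: Cd4, which rat macrophages also carry, rose by 0.17 ± 0.04, adjusted p = 0.0491. Cd3e, a part of the T cell receptor, read 5.54, 5.55 and 5.56 in the wild type and 5.55, 5.55 and 5.53 in the affected males, on the floor. The count of macrophage genes called higher was 5 without wild type replicate 1, 2 or 3 and 3 with the 6 male arrays alone. Calls ended by leaving out 1 male array were C1qa without wild type replicate 1, 2 or 3 (highest adjusted p 0.0961), Csf1r without wild type replicate 1, 2 or 3 or affected replicate 3 (highest adjusted p 0.108), and Cd4 without wild type replicate 1, 2 or 3 or affected replicate 1 or 3 (highest adjusted p 0.165).

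Complement and coagulation genes were higher for 13 of 33 (39.4%) and lower for 0. The list holds C1q chains that also stand in the macrophage list. Serping1, which inhibits C1s and plasma kallikrein, read 8.75, 8.71 and 8.99 and 9.87, 9.74 and 10.08 (1.08 ± 0.17, adjusted p = 0.0071). The 3 fibrinogen chains rose from the floor. Fgg, chosen after its value was seen, read 5.94, 5.86 and 5.85 in the wild type and 6.11, 6.20 and 6.30 in the affected males (0.32 ± 0.05, adjusted p = 0.0102). Fga was called by both of its probe sets, at 0.14 and 0.51 log2, and Fgb, also chosen after its value was seen, rose by 0.16 log2. Cfi, the complement protease that cleaves C3b, and Pros1, the cofactor protein S, both chosen after their values were seen, rose by 0.28 and 0.22 log2. The count of complement and coagulation genes called higher was 8 without wild type replicate 1 or 2 and 3 with the 6 male arrays alone. A call was lost for Fgb without wild type replicate 1, 2 or 3 (highest adjusted p 0.0735).

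Liver markers were looked at beside these plasma protein genes, and few of them were called. Alb, the serum albumin gene, was chosen after its values were seen. It read 7.87, 6.67 and 7.04 in the wild type and 9.06, 8.68 and 10.53 in the affected males, a mean difference of 2.23 ± 0.97 log2. Its groups did not overlap, but the spread in both was so wide that it was not called (adjusted p = 0.243). Ttr, the thyroxine carrier transthyretin, was called (0.37 ± 0.09, adjusted p = 0.0414), whereas Apoa1 and Serpina1, defining genes of hepatocytes, had means under 6.5 in both groups. The summed linear signal of the 4 liver markers was 300 to 441 in wild type and 638 to 1742 in affected males, with 1 of 4 called. Most of the sum in affected males came from Alb, which was not called. A call was lost for Ttr without wild type replicate 1, 2 or 3 or affected replicate 1 or 3 (highest adjusted p 0.139).

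Basement membrane genes were higher for 8 of 18 (44.4%), with 0 lower and a median of 0.25 log2. The collagen IV chains Col4a1 and Col4a2, which form the main network of the tubular and vascular basement membrane, read 10.40, 10.26 and 10.59 against 10.996, 11.22 and 11.41 and 11.06, 10.97 and 11.22 against 11.80, 11.73 and 11.75. Their rises were 0.79 ± 0.10, adjusted p = 0.00408, and 0.68 ± 0.06, adjusted p = 0.00146. A second Col4a1 probe set rose by 1.10 log2. The linker protein nidogen, Nid1, rose by 0.65 ± 0.09, adjusted p = 0.00486, and Col18a1, the parent of endostatin, by 0.61 ± 0.14, adjusted p = 0.0361. The collagen IV values of affected males were close together for Col4a2 and spread for Col4a1. Of 40 interstitial matrix genes 20 (50.0%) were higher and 0 lower, with the highest median of the 64 lists, 0.41 log2. Within it, members chosen after their values were seen include the collagen processing factors Pcolce (1.03 ± 0.15, adjusted p = 0.00653), an enhancer of procollagen cleavage, and Serpinh1 (0.78 ± 0.09, adjusted p = 0.00282), the collagen chaperone Hsp47, and the collagen VI chains Col6a1 and Col6a2 (0.72 and 0.40 log2). The count of basement membrane genes called higher was 3 without wild type replicate 1 or 2, 4 without wild type replicate 3, 5 without affected replicate 3 and 3 with the 6 male arrays alone. The count of interstitial matrix genes called higher was 12 without wild type replicate 2 and 9 with the 6 male arrays alone. A call was lost for Col18a1 without wild type replicate 1, 2 or 3 or affected replicate 2 or 3 (highest adjusted p 0.135).

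Of 34 matrix-cutting enzymes and their inhibitors 8 (23.5%) were higher and 1 was lower, with a median of 0.12 log2, and after quantile normalization 8 were higher and 3 lower. Mmp14, a membrane-bound metalloproteinase, read 7.46, 7.45 and 7.70 and 8.25, 8.12 and 8.65 (0.80 ± 0.12, adjusted p = 0.00708), and Mmp2, which it activates, rose by 0.61 ± 0.10, adjusted p = 0.00965. The inhibitor Timp1 read 6.51, 6.43 and 6.55 and 6.98, 7.23 and 7.62 (0.78 ± 0.14, adjusted p = 0.0143); Adamts1, which cleaves proteoglycans, read 6.12, 6.02 and 6.13 and 6.71, 6.60 and 7.38 (0.81 ± 0.17, adjusted p = 0.0282). Affected replicate 3 was the highest in these 4 genes. The 1 gene that fell, Mmp9, chosen after its value was seen, read 6.43, 6.59 and 6.56 and 6.32, 6.17 and 6.27 (-0.28 ± 0.06, adjusted p = 0.0253). The count of these enzymes and inhibitors called higher was 3 without wild type replicate 2, 4 without wild type replicate 1 and 0 with the 6 male arrays alone. Leaving out 1 male array ended the calls of Timp1 without wild type replicate 2 (highest adjusted p 0.0629), Adamts1 without wild type replicate 1, 2 or 3 (highest adjusted p 0.107), and Mmp9 without wild type replicate 2 or 3 or affected replicate 2 or 3 (highest adjusted p 0.105).

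Of 44 TGF-beta and BMP genes 8 (18.2%) were higher and 0 lower, although the median was 0.06 log2. Ltbp4, which binds latent TGF-beta to the matrix, read 8.16, 7.995 and 8.44 in the wild type and 9.34, 9.23 and 9.70 in the affected males, a 2.34-fold rise (1.22 ± 0.15, adjusted p = 0.00324). The secreted follistatin-like protein Fstl1 was called by all 3 of its probe sets, by 0.72 log2 in the brightest. The ligand Tgfb1 read 6.39, 6.52 and 6.56 and 6.84, 6.97 and 7.36 (0.57 ± 0.11, adjusted p = 0.0172), and Id3, a target of BMP signals, rose by 0.64 ± 0.12, adjusted p = 0.0158. Smad3, a transducer of TGF-beta chosen after its value was seen, rose by 0.39 ± 0.07, adjusted p = 0.011. Among 29 integrins and matrix receptors 6 (20.7%) were higher and 0 lower, led by the tetraspanin Cd151 (0.50 ± 0.05, adjusted p = 0.00163), the leukocyte ligands Icam1 (0.47 log2) and Vcam1 (0.33), and the focal adhesion scaffold Pxn (0.35). The count of TGF-beta and BMP genes called higher was 3 without wild type replicate 2, 4 without wild type replicate 1 or affected replicate 3 and 1 with the 6 male arrays alone. The count of integrins and receptors called higher was 3 without wild type replicate 2 or affected replicate 3 and 3 with the 6 male arrays alone. Single male arrays ended the calls of Id3 and Vcam1 without wild type replicate 1 or 2 or affected replicate 3 (highest adjusted p 0.119), Tgfb1 without wild type replicate 1 or 2 (highest adjusted p 0.0632), and Pxn without wild type replicate 1, 2 or 3 or affected replicate 1, 2 or 3 (highest adjusted p 0.104).

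Cytokine signalling gave calls at several steps, although most members of its lists were not called. The shared receptor chain of the interleukin 6 family, Il6st, read 8.32, 8.15 and 8.49 and 9.10, 8.68 and 9.23 (0.69 ± 0.14, adjusted p = 0.0223), and all 3 of its probe sets were called. Its transducer Stat3 rose by 0.65 ± 0.08, adjusted p = 0.00353. In the separate NF-kappa B branch Nfkb1 rose by 0.38 ± 0.06, adjusted p = 0.0063 and the adaptor Myd88 by 0.19 ± 0.04, adjusted p = 0.0217, so that 5 of 34 JAK-STAT and NF-kappa B genes (14.7%) were higher and 0 lower, with a median of 0.05 log2. Of 38 chemokines and cytokines 4 (10.5%) were higher, against 5.57% over all genes. The scavenger chemokine Cxcl16 read 8.94, 8.91 and 8.87 and 9.81, 9.65 and 9.57 (0.77 ± 0.11, adjusted p = 0.00498). The siderophore binder Lcn2, a marker of tubule injury, read 6.11, 6.10 and 6.15 and 6.88, 7.46 and 7.75 (1.24 ± 0.19, adjusted p = 0.00708). Ccl6 rose by 0.43 ± 0.04, adjusted p = 0.00146 and the membrane-bound chemokine Cx3cl1 by 0.45 ± 0.11, adjusted p = 0.0414. Wild type values of Lcn2 lay on the floor, so its change is a compressed one. The count of JAK-STAT and NF-kappa B genes called higher was 2 without wild type replicate 2 or affected replicate 3, 3 without wild type replicate 3 and 1 with the 6 male arrays alone. Calls lost without 1 male array were Il6st without wild type replicate 1 or 2 or affected replicate 1 or 3 (highest adjusted p 0.0948), Myd88 without wild type replicate 2 or 3 or affected replicate 3 (highest adjusted p 0.0872), and Cx3cl1 without wild type replicate 1, 2 or 3 or affected replicate 1 or 3 (highest adjusted p 0.148).

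Cell cycle genes were higher for 10 of 43 (23.3%), with 0 lower and a median of 0.10 log2. The G1 kinase Cdk4 read 8.57, 8.60 and 8.74 in the wild type and 8.86, 9.19 and 9.28 in the affected males (0.47 ± 0.10, adjusted p = 0.0234), its cyclins Ccnd1 and Ccnd3 rose by 0.42 and 0.35 log2, and Ran, a GTPase of nuclear transport and spindle assembly, by 0.43 ± 0.08, adjusted p = 0.014. Mitotic genes lay near the floor. Cdk1 and Top2a, which drive mitosis and untangle chromosomes and were chosen after their values were seen, read 6.29, 6.33 and 6.31 against 6.47, 6.56 and 6.80 and 6.16, 6.16 and 6.16 against 6.28, 6.42 and 6.35, rises of 0.30 and 0.19 log2. Of 18 p53 and DNA damage genes 0 were called by limma; the smallest p belonged to Phlda3 (0.13 ± 0.04 log2, adjusted p = 0.122). Of 35 apoptosis genes 5 (14.3%, against 5.57% over all genes) were higher, led by the death receptor Tnfrsf1a (1.10 log2) and the galectin Lgals1 (0.86 ± 0.15, adjusted p = 0.0109). Among other growth factor genes, 6 of 45 (13.3%) were higher and Fgf9 was lower (-0.32 ± 0.06, adjusted p = 0.021). The count of cell cycle genes called higher was 1 without wild type replicate 2, 4 without wild type replicate 1 or affected replicate 3, 5 without wild type replicate 3, 18 without affected replicate 1 and 2 with the 6 male arrays alone. The count of apoptosis genes called higher was 1 without wild type replicate 2, 2 without wild type replicate 1 or 3, 3 without affected replicate 3, 8 without affected replicate 1 and 0 with the 6 male arrays alone. The count of growth factor genes called higher was 1 without wild type replicate 1 or 2, 2 without wild type replicate 3 or affected replicate 3, 3 without affected replicate 1 and 1 with the 6 male arrays alone. Single male arrays ended the calls of Cdk4 and Ccnd1 without wild type replicate 1 or 2 or affected replicate 2 or 3 (highest adjusted p 0.0948), Ran and Lgals1 without wild type replicate 2 (highest adjusted p 0.0631), Ccnd3 without wild type replicate 1, 2 or 3 or affected replicate 1 or 3 (highest adjusted p 0.121), Cdk1 without wild type replicate 1, 2 or 3 (highest adjusted p 0.0961), Top2a without wild type replicate 1, 2 or 3 or affected replicate 2 or 3 (highest adjusted p 0.121), and Fgf9 without wild type replicate 1 or 2 or affected replicate 3 (highest adjusted p 0.0896).

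Of 53 oxidative stress genes 4 (7.55%, near the 5.57% over all genes) were higher and 1 lower, with a median of -0.03 and 24 of 53 changes above 0. Called members that rose are given as single genes, and the member that was lower is not named in this paragraph. The epithelial glutathione peroxidase Gpx2 read 6.07, 5.996 and 6.10 and 6.56, 6.61 and 7.07 (0.69 ± 0.12, adjusted p = 0.0107), and the mitochondrial carrier Ucp2 read 7.80, 7.87 and 7.78 and 8.18, 8.34 and 8.39 (0.48 ± 0.05, adjusted p = 0.00225). The peroxiredoxin Prdx2 rose by 0.34 log2. Cp, the copper oxidase ceruloplasmin, was called by all 3 of its probe sets, by 1.64, 1.07 and 0.49 log2 from the brightest to the dimmest, and the zinc and iron carrier Slc39a14 by 0.26 ± 0.04, adjusted p = 0.00863. Of 43 lysosome genes 5 (11.6%) were higher and 1 (2.33%) lower. Only 5 of the 43 had means under 6.5, and the share higher was below the 12.6% of all probe sets between levels 8 and 10. The protease Ctsd read 11.34, 11.27 and 11.34 and 12.11, 12.25 and 12.35 (0.92 ± 0.11, adjusted p = 0.00297), the protease inhibitor Cst3 and the cholesterol carrier Npc2 rose by 0.40 and 0.38 log2, and the galactosidase Glb1 fell (-0.47 ± 0.11, adjusted p = 0.037). The count of lysosome genes called higher was 1 without wild type replicate 2, 2 without wild type replicate 1, 3 without wild type replicate 3 and 1 with the 6 male arrays alone. Calls that single male arrays ended were Npc2 and Glb1 without wild type replicate 1, 2 or 3 or affected replicate 2 or 3 (highest adjusted p 0.143), Gpx2 without wild type replicate 2 (highest adjusted p 0.052), Prdx2 without wild type replicate 1, 2 or 3 or affected replicate 1 or 3 (highest adjusted p 0.101), and Cst3 without wild type replicate 1 or 2 or affected replicate 1 or 3 (highest adjusted p 0.0981).

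Of 65 fatty acid oxidation and peroxisome genes 0 were higher and 5 lower, and the median was -0.13 log2. Acsl1, which activates long-chain fatty acids, read 7.81, 7.98 and 7.96 in the wild type and 7.37, 7.15 and 7.14 in the affected males (-0.69 ± 0.13, adjusted p = 0.015), but its brighter probe set, which stands for it in the list, differed by -0.29 and was not called. Amacr, a racemase needed for branched-chain fatty acids, read 9.96, 10.17 and 10.002 and 9.80, 9.31 and 9.33 (-0.56 ± 0.12, adjusted p = 0.0306). The enoyl-CoA isomerases Eci1 (-0.42 ± 0.09, adjusted p = 0.0233) and Eci2 (-0.32 ± 0.06, adjusted p = 0.0205) and the medium-chain dehydrogenase Acadm (-0.32 ± 0.06, adjusted p = 0.0125) fell too. Affected replicate 1 was the nearest to wild type in Acsl1 and Amacr. After quantile normalization 14 genes of the list were lower and 0 higher, with a median of -0.20. The count of fatty acid genes called lower was 1 without wild type replicate 2, 3 without wild type replicate 3 or affected replicate 2 or 3, 8 without affected replicate 1 and 3 with the 6 male arrays alone. Single male arrays ended the calls of Eci2 and Acadm without wild type replicate 2 (highest adjusted p 0.0874), Acsl1 without wild type replicate 2 or 3 or affected replicate 3 (highest adjusted p 0.065), Amacr without wild type replicate 1, 2 or 3 or affected replicate 2 or 3 (highest adjusted p 0.122), and Eci1 without wild type replicate 2 or 3 or affected replicate 2 or 3 (highest adjusted p 0.0976).

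Amino acid and creatine metabolism had 5 of 54 genes lower (9.26%) and 1 higher, and its median of -0.19 log2 was among the lowest. Aldh6a1, an enzyme of valine breakdown, read 11.31, 11.33 and 11.42 and 11.13, 10.71 and 10.61 (-0.53 ± 0.12, adjusted p = 0.0345), Cth, which makes cysteine from cystathionine, read 9.94, 10.09 and 10.10 and 9.85, 9.39 and 9.55 (-0.45 ± 0.10, adjusted p = 0.0306), and the glycine cleavage enzyme Gldc fell by 0.38 ± 0.08, adjusted p = 0.0304. Affected replicate 1 lay close below the wild type males in the first 2 genes. The gene that rose, Bckdk, encodes the kinase that switches off branched-chain keto acid oxidation (0.30 ± 0.07, adjusted p = 0.0343). After quantile normalization 11 genes of the list were lower and 0 higher. Of 61 oxidative phosphorylation genes 2 were lower, the ATP synthase subunits Atp5f1a (-0.15 log2) and Atp5f1b (-0.11), and 0 higher. Their list median, -0.03, was above 0 without wild type replicate 2 or affected replicate 2. Averaged over the list's genes, affected replicate 1 lay above the wild type mean. The tricarboxylic acid cycle and gluconeogenesis list had 1 of 33 higher and 0 lower, with a median of -0.10, and there too affected replicate 1 lay above the wild type mean. In glycolysis and hypoxia 1 of 37 genes was called, Ldha, which was higher (0.59 ± 0.09, adjusted p = 0.00708). The count of amino acid genes called lower was 0 without wild type replicate 1 or 2, 1 without wild type replicate 3 or affected replicate 3, 2 without affected replicate 2, 14 without affected replicate 1 and 0 with the 6 male arrays alone. Calls that ended without 1 male array were Gldc, Bckdk, Atp5f1a and Atp5f1b without wild type replicate 1, 2 or 3 or affected replicate 1 or 3 (highest adjusted p 0.176), and Aldh6a1 and Cth without wild type replicate 1, 2 or 3 or affected replicate 2 or 3 (highest adjusted p 0.117).

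Proximal tubule transport and brush border genes were lower for 8 of 61 (13.1%) and higher for 0, with a median of -0.17 log2. Slco1a6, an organic anion carrier, read 9.08, 9.42 and 9.33 in the wild type and 8.72, 8.68 and 8.54 in the affected males (-0.63 ± 0.10, adjusted p = 0.00866). Mep1b, a metalloprotease of the brush border, read 9.96, 10.23 and 9.97 and 9.55, 9.34 and 9.31 (-0.65 ± 0.09, adjusted p = 0.00525). Slco1a1, another organic anion carrier, read 9.28, 9.30 and 8.74 and 8.32, 8.06 and 7.43, the 1 fall beyond 2-fold among the calls (-1.17 ± 0.23, adjusted p = 0.0201). The 3 genes separated the groups, but affected males spread most in Slco1a1. Differences were smaller in the defining markers: the water channel Aqp1 fell by 0.29 ± 0.05, adjusted p = 0.0106, while the megalin gene Lrp2 and the glucose carrier Slc5a2 were not called (-0.16 and -0.22 log2, adjusted p = 0.283 and 0.753). The summed linear signal of the 4 proximal markers was 17382 to 19003 in wild type and 13419 to 17211 in affected males. After quantile normalization 15 genes of the list were lower and 0 higher. Adh1c, an alcohol dehydrogenase, read 9.23, 9.12 and 9.01 and 8.25, 8.30 and 8.22 (-0.87 ± 0.09, adjusted p = 0.0022), the least spread of these falls. The count of proximal tubule genes called lower was 4 without wild type replicate 2, 5 without affected replicate 3, 13 without affected replicate 1 and 2 with the 6 male arrays alone. The call ended for Slco1a1 without wild type replicate 1 or 2 (highest adjusted p 0.0879).

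In the distal nephron the counts of calls were small, but the shares called lower were above that over all genes. Of 33 loop and distal tubule genes 2 (6.06%) were lower and 1 (3.03%) higher, against 0.97% and 5.57% over all genes. The count called lower was 8 without affected replicate 1, 1 without wild type replicate 2 and 0 with the 6 male arrays alone. Casr, the calcium-sensing receptor of the thick ascending limb, read 7.66, 7.69 and 7.60 and 7.23, 6.96 and 7.23 (-0.51 ± 0.08, adjusted p = 0.00743); Egf, made by the same and the following segment, read 11.19, 11.19 and 11.18 and 10.87, 10.43 and 10.37 (-0.63 ± 0.11, adjusted p = 0.0121); and the claudin Cldn19 rose by 0.96 ± 0.10, adjusted p = 0.0022. The thick ascending limb markers Umod and Slc12a1 were not called. Their summed linear signal, most of it from Umod, was 10552 to 10654 in wild type and 9704 to 9871 in affected males. Groups without overlap were common, at 24.8% of all probe sets. Of 26 collecting duct genes 2 (7.69%) were lower and 0 higher. That count was 3 without affected replicate 1, 0 without wild type replicate 2 and 1 with the 6 male arrays alone. Hsd11b2, which protects the mineralocorticoid receptor from glucocorticoids, read 11.24, 11.17 and 11.13 and 10.93, 10.56 and 10.70 (-0.45 ± 0.11, adjusted p = 0.0387), and the anion exchanger Slc26a4 of intercalated cells fell by 0.46 ± 0.08, adjusted p = 0.0106. The vasopressin-regulated water channel Aqp2 read 11.72, 11.44 and 11.65 and 11.77, 11.36 and 11.99 (adjusted p = 0.828), with overlapping groups. The prolactin receptor Prlr fell by 0.49 ± 0.09, adjusted p = 0.0174, and its other 2 probe sets differed by -0.20 and -0.42. Calls depended on 1 male array for Egf and Slc26a4 without wild type replicate 2 (highest adjusted p 0.0512), Hsd11b2 without wild type replicate 1, 2 or 3 or affected replicate 2 or 3 (highest adjusted p 0.117), and Prlr without wild type replicate 1 or 2 or affected replicate 3 (highest adjusted p 0.0635).

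Calcium and phosphate handling was mixed, with 3 of 36 genes higher (8.33%) and 3 lower (8.33%), against 5.57% and 0.97% over all genes. Slc34a2, a phosphate carrier better known from lung and gut, read 6.25, 6.28 and 6.38 in the wild type, near the floor, and 7.24, 7.80 and 7.91 in the affected males (1.35 ± 0.20, adjusted p = 0.00684). The vitamin D receptor Vdr, chosen after its value was seen, read 6.30, 6.38 and 6.30 and 6.20, 6.22 and 6.12 (-0.14 ± 0.03, adjusted p = 0.0306). Purinergic genes gave 2 of 30 lower (6.67%) and 0 higher, the ectonucleotidases Entpd5 (-0.42 ± 0.09, adjusted p = 0.0266) and Enpp1 (-0.15 log2). The cyclooxygenase Ptgs2, near the floor, fell (-0.22 ± 0.05, adjusted p = 0.0216). Fabp5, a fatty acid binding protein, fell by 0.51 ± 0.12, adjusted p = 0.0429, and the desaturase Fads1 rose by 0.37 ± 0.06, adjusted p = 0.00781, in a lipid synthesis list with 2 of 44 higher and 2 lower. Calls ended by single male arrays were Vdr without wild type replicate 1, 2 or 3 or affected replicate 3 (highest adjusted p 0.112), Entpd5 without wild type replicate 1 or 2 or affected replicate 2 or 3 (highest adjusted p 0.109), Enpp1 without wild type replicate 2 or 3 or affected replicate 1 or 3 (highest adjusted p 0.148), Ptgs2 without wild type replicate 2 or 3 or affected replicate 2 or 3 (highest adjusted p 0.0936), and Fabp5 without wild type replicate 1, 2 or 3 or affected replicate 2 or 3 (highest adjusted p 0.147).

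Pathways often named in cystic disease showed few calls, with the most in Wnt signalling, where the count moved with single arrays. Many of their genes lay near the floor, where changes are compressed. Means under 6.5 were found for 9 of 26 cilium, 19 of 34 cyclic AMP, 14 of 19 Notch and Hedgehog and 17 of 31 Wnt genes. Of 26 measured cilium and cystic disease genes 0 were higher and 1 (3.85%) lower, against 0.97% lower over all genes, with a median of 0.02 log2. The called gene, Bbs2, a subunit of the ciliary BBSome, read 6.95, 7.20 and 7.03 and 6.80, 6.62 and 6.46 (-0.43 ± 0.09, adjusted p = 0.0285). Of 34 vasopressin and cyclic AMP genes 2 (5.88%, near the share over all genes) were higher, the inhibitory G protein Gnai2 (0.41 ± 0.08, adjusted p = 0.0212) and the kinase subunit Prkacb (0.18 log2). Notch and Hedgehog genes gave 0 calls of 19. The cholinergic and neuronal list gave 0 of 33, with 30 of its genes at means under 6.5. Wnt signalling had 4 of 31 higher (12.9%) and 1 lower (3.23%), against 5.57% and 0.97% over all genes, with a median of 0.01 log2. Its count higher was 1 without wild type replicate 1 or 2 or affected replicate 3, and 2 without wild type replicate 3. It was 5 without affected replicate 1 or 2, and 2 after quantile normalization or with the 6 male arrays alone. The cyclin Ccnd1, a Wnt target, and the secreted antagonists Frzb and Dkk3 rose by 0.42, 0.48 and 0.32 log2, while the related protein Sfrp2 fell, from 7.71, 7.47 and 7.72 to 7.18, 6.92 and 6.93 (-0.62 ± 0.10, adjusted p = 0.00858). Autophagy and mTOR had 2 of 30 higher, among them the kinase Akt1 (0.43 ± 0.09, adjusted p = 0.0234); the circadian list had 1 of 17, the kinase Csnk1d (0.26 ± 0.04, adjusted p = 0.00653); the renin-angiotensin list had 1 of 33, the endothelin-converting enzyme Ece1 (0.48 ± 0.09, adjusted p = 0.0156). The medians of the cilium, cyclic AMP, Notch, p53, autophagy and renin-angiotensin lists, all near 0, changed sign under quantile normalization. Without 1 of the male arrays, calls were lost for Gnai2 and Ccnd1 without wild type replicate 1 or 2 or affected replicate 2 or 3 (highest adjusted p 0.0828), Prkacb and Dkk3 without wild type replicate 1, 2 or 3 or affected replicate 2 or 3 (highest adjusted p 0.175), Frzb and Akt1 without wild type replicate 1, 2 or 3 or affected replicate 3 (highest adjusted p 0.121), Bbs2 without wild type replicate 2 or 3 or affected replicate 2 or 3 (highest adjusted p 0.11), and Ece1 without wild type replicate 1 or 2 (highest adjusted p 0.0615).

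The lists of sex-dependent kidney genes both had medians under 0 in affected males. Rodent proximal tubules express some transporters and enzymes at levels set by sex hormones. Of 13 genes in the female-biased list 3 (23.1%) were lower and 0 higher, and their median of -0.22 log2 was the lowest of the 64 lists. They were Adh1c and Prlr, described above, and the organic anion carrier Slc22a24, which read 9.75, 9.52 and 9.62 in the wild type and 8.96, 9.002 and 9.07 in the affected males (-0.62 ± 0.09, adjusted p = 0.00607) without overlap. Of 13 genes in the male-biased list 1 was lower (Slco1a1) and 1 higher, the diamine oxidase Aoc1, close to the floor (0.16 log2); the median was -0.16. Averaged over the female-biased genes, affected replicates 1, 2 and 3 differed from the wild type mean by -0.20, -0.29 and -0.33. Averaged over the male-biased genes, they differed by -0.04, -0.25 and -0.32. Several members of both lists also stand in the proximal tubule list.

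Transcription factors of the early stress response had 4 of 32 genes higher (12.5%) and 0 lower. Klf6 read 6.13, 6.13 and 6.19 and 6.39, 6.63 and 6.60 (0.39 ± 0.06, adjusted p = 0.00707), and the growth regulator Myc, on the floor in wild type, read 5.87, 5.83 and 5.86 and 6.04, 6.12 and 6.16 (0.26 ± 0.03, adjusted p = 0.00267). Cebpb and Junb rose by 0.24 and 0.24 log2. Endothelial genes were called higher for 2 of 31 and lower for 0, near the share over all genes: the TGF-beta co-receptor endoglin, Eng (0.53 ± 0.11, adjusted p = 0.0212), and the membrane-trafficking protein Ehd4 (0.49). Among 27 developmental genes of the kidney Cd24, a surface protein of progenitor and injured tubule cells, read 10.85, 10.79 and 10.81 and 11.37, 11.53 and 11.67 (0.71 ± 0.15, adjusted p = 0.0274), and Runx1 rose by 0.19. The purine enzymes Aprt and Atic rose by 0.55 and 0.40 log2, the farnesyl diphosphate synthase Fdps of the cholesterol pathway by 0.43, the citrate carrier Slc25a1 by 0.23, the glomerular and stromal factor Tcf21 by 0.30, the cytochrome Cyp1b1 by 0.32, the chloride channel protein Clic1 by 0.36 and the Golgi cargo proteins Tmed2 and Tmed3 by 0.24 and 0.19. These were 1 or 2 calls in lists of 16 to 56 genes, apart from the Golgi list with 4 of 49. Removing 1 male array ended calls for Junb, Cd24 and Cyp1b1 without wild type replicate 1, 2 or 3 or affected replicate 2 or 3 (highest adjusted p 0.153), Ehd4, Atic and Fdps without wild type replicate 1, 2 or 3 (highest adjusted p 0.139), Aoc1 without wild type replicate 2 or 3 or affected replicate 3 (highest adjusted p 0.0772), Cebpb without wild type replicate 1, 2 or 3 or affected replicate 3 (highest adjusted p 0.126), Eng without wild type replicate 1 or 2 or affected replicate 3 (highest adjusted p 0.0881), Slc25a1 without wild type replicate 2 or 3 or affected replicate 1 or 3 (highest adjusted p 0.121), Tcf21 without wild type replicate 1 or 2 or affected replicate 1 or 3 (highest adjusted p 0.144), Clic1 without wild type replicate 2 (highest adjusted p 0.059), and Tmed3 without wild type replicate 1 or 2 (highest adjusted p 0.0681).

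Genes outside all lists held some of the strongest changes. Tmem176b, an ion channel-like membrane protein of myeloid and other cells, read 9.36, 9.26 and 9.43 in the wild type and 10.53, 10.59 and 10.87 in the affected males (1.32 ± 0.10, adjusted p = 0.000606), and the related Tmem176a read 9.05, 8.54 and 8.80 and 9.75, 9.75 and 10.41 (1.17 ± 0.19, adjusted p = 0.00834). Cygb, cytoglobin, a haem protein of fibroblasts, read 8.95, 8.33 and 8.83 and 9.90, 9.61 and 10.09 (1.16 ± 0.17, adjusted p = 0.00567). Wild type replicate 2 was the lowest of the 6 in Tmem176a and Cygb, and the groups stayed apart in all 3 genes. Gja1, the gap junction protein connexin 43, read 6.54, 6.44 and 6.63 and 7.24, 7.46 and 7.60 (0.90 ± 0.10, adjusted p = 0.0027); of its other 2 probe sets 1 was called, at 0.14 log2. The matrix protein Ccdc80 rose by 1.14 ± 0.14, adjusted p = 0.00282, the prohormone-trimming carboxypeptidase Cpe by 0.89 ± 0.15, adjusted p = 0.00876, the PDZ protein Tax1bp3 by 0.84 ± 0.07, adjusted p = 0.00143 and the LIM protein Csrp1 by 0.82 ± 0.15, adjusted p = 0.0151. The interferon-inducible Ifi27l2b rose by 0.85 ± 0.20, adjusted p = 0.0414, and Havcr1, the tubule injury molecule KIM-1, read 6.04, 6.04 and 6.18 and 7.42, 8.98 and 9.44 (2.53 ± 0.42, adjusted p = 0.00965). Leaving out single male arrays cost the calls of Csrp1 without wild type replicate 2 (highest adjusted p 0.068), and Ifi27l2b without wild type replicate 1, 2 or 3 (highest adjusted p 0.135).

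Of the called falls outside the lists, the 10 largest are named here. Dnase1, a secreted nuclease, read 10.44, 10.36 and 10.46 and 10.06, 9.62 and 9.35 (-0.74 ± 0.15, adjusted p = 0.0244), and Lactb2, a mitochondrial nuclease, read 9.55, 10.11 and 9.73 and 9.36, 8.90 and 8.71 (-0.80 ± 0.20, adjusted p = 0.0473). The monocarboxylate carrier Slc16a7 read 8.19, 8.52 and 8.35 and 7.88, 7.48 and 7.50 (-0.74 ± 0.16, adjusted p = 0.0309). Affected replicate 1 lay nearest to the wild type range in each of them. Smaller falls were those of Hnmt, which methylates histamine (-0.63 log2), the uncharacterised C8h11orf54 (-0.63), the kallikrein Klk1b3 (-0.63), the glyoxalase Hagh (-0.58), the decoy receptor Tnfrsf11b (-0.57) and Mro (-0.54). Myo6, a myosin of brush border endocytosis, fell with little spread, from 8.21, 8.29 and 8.21 to 7.62, 7.80 and 7.70 (-0.53 ± 0.07, adjusted p = 0.00324). A second probe set of Hnmt differed by 0.00 and one of Myo6 by -0.25. Apart from that of Myo6, these calls depended on single male arrays, being lost for Dnase1, Lactb2, Slc16a7, Klk1b3 and Tnfrsf11b without wild type replicate 1, 2 or 3 or affected replicate 2 or 3 (highest adjusted p 0.164), Hnmt without wild type replicate 2 (highest adjusted p 0.0622), C8h11orf54 without wild type replicate 1 or 2 or affected replicate 3 (highest adjusted p 0.0755), Hagh without wild type replicate 1, 2 or 3 (highest adjusted p 0.13), and Mro without wild type replicate 1, 2 or 3 or affected replicate 3 (highest adjusted p 0.168).

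Where a gene had several probe sets, the calls did not contradict each other. Of 1868 genes with 2 or more probe sets, 181 had at least 1 call and 32 had 2 or more, all higher and 0 with opposite signs. The largest mean changes among the 32 were those of Tpm1, Cp, Tubb5, Actn1 and Col4a1, from 1.25 to 0.95 log2. In the 181 genes 215 probe sets were not called, and 121 of these had a mean signal under 6.5.

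The affected males were not alike in their distance from wild type. Replicate 3 was the farthest from wild type in 514 of the 753 higher calls (68.26%) and in 71 of the 125 lower ones (56.8%). Among higher calls its median distance from the wild type mean was 0.39 log2, against 0.30 and 0.28 in replicates 1 and 2; among lower calls the medians were -0.21, -0.28 and -0.32 in replicates 1, 2 and 3. The main axis of variation of the 6 arrays, holding 66.0% of their variance, placed the wild type males between -12.8 and -7.44 and the affected males at 4.50, 6.42 and 18.3. Without affected replicate 3 there were 500 calls, without wild type replicate 2 307, without wild type replicate 1 451 and without wild type replicate 3 501, against 1061 without affected replicate 1 and 867 without affected replicate 2.

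Females were compared to see where the male changes differed. Affected minus wild type gave 10 calls of 15866 probe sets in females (0.063%), 9 of which were also called in males. Of the 753 probe sets called higher in males, 715 had a positive female change, with a median of 0.13 log2, and 8 had a larger change in females; of the 125 called lower 100 had a negative female change, with a median of -0.07. Because these probe sets were chosen by their male change, their female change can be expected to be smaller, and the difference itself was tested. The interaction, the male minus the female effect, was called by limma for 0 probe sets (0.0%, smallest adjusted p 0.452). Of all 15866, 992 had an unadjusted p under 0.05, and 388 of these were called higher and 70 lower in males. The male effect that made those calls is part of the interaction, so the overlap is raised by the selection. The 5 probe sets of smallest interaction p were Adh1c (-0.87 log2 in males and 0.04 in females), Myo6 (-0.53 and 0.11), Col5a2 (0.72 and 0.12), Col4a2 (0.68 and 0.15) and Nudt21, a factor that selects polyadenylation sites (0.25 and 0.02). No gene is therefore shown to respond differently in the sexes.

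**Figure D4:**
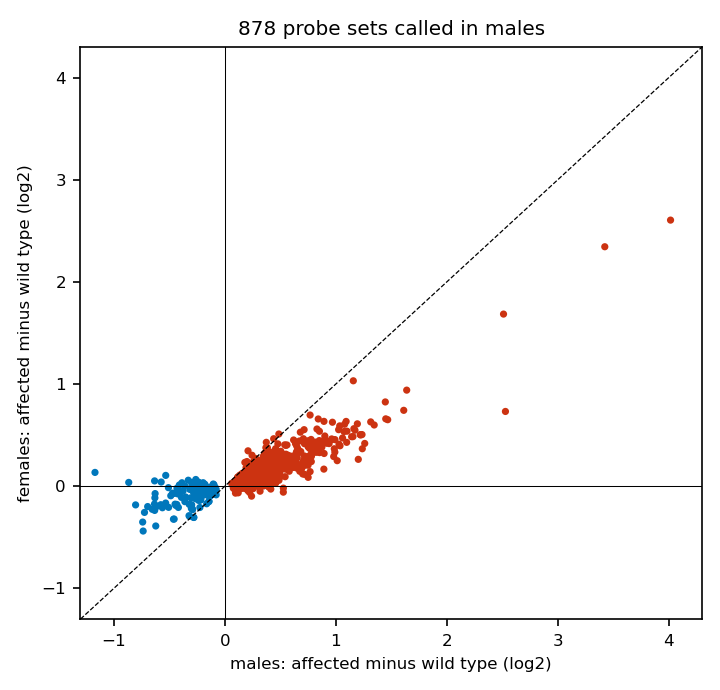
Male and female changes of the 878 probe sets called in males. The horizontal axis is affected minus wild type in males and the vertical axis the same in females (log2); red points were called higher and blue points lower in males, and the dashed line marks equal change. Most points lie between the line of equal change and 0 on the vertical axis; the interaction was called for 0 of them.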

How the data were processed

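Total RNA of 12 kidneys was measured on Affymetrix arrays, 1 per kidney and 3 in each of 4 groups. Per the labels' protocols, RNA was extracted with Trizol and labelled with biotin. The authors deposited 1 log2 signal per probe set and array; how they summarised and normalized the arrays is not given in the sources used here, and the log base was taken from the range of the values. The deposited values were used unchanged. The 57 control probe sets were left out of 15923, and 15866 were tested. Symbols came from the platform annotation, updated through Entrez identifiers for 12748 of the 12783 probe sets that name 1 gene; 312 name several and 2771 none. A model with 4 group means was fitted to all 12 arrays with limma 3.58.1 (R 4.3.3), its moderated two-sided test was adjusted by Benjamini-Hochberg over all probe sets, and a call needed an adjusted p under 0.05. It was tested on simulated data. The number of arrays limits the precision.

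The rule for naming genes selects the 15 largest called rises and the 15 largest called falls. From each list it takes up to 4 called members by size of change, or, with 0 called, the member of smallest p. It adds the 10 largest rises and 10 falls in no list. It also adds 5 examples of genes with several called probe sets and the 5 smallest interaction p-values. Some selected genes, among them Spp1, Clu, Mgp, Dcn, Igfbp1 and Fcer1g, are not described in the text. Genes named outside the rule are marked. For each gene the probe set of highest mean over 12 arrays stands in the lists. The members and lists were chosen with earlier results of these data known. Alternatives were quantile normalization, centring arrays on their medians, leaving out the dimmest 40% of probe sets, a variance trend, array weights, the 6 male arrays alone, a replicate block and leaving out each array.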

Additional observations from a re-analysis of the deposited data

How the results depend on the processing

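The count of 878 calls in males stayed within 1.5 times under quantile normalization, centring, the filter on dim probe sets, the variance trend, array weights and the replicate block over 12 arrays. Quantile normalization gave 497 higher and 284 lower. With the 6 male arrays alone there were 190 calls, 172 higher and 18 lower. Leaving out 1 array gave 307 to 1061 calls, 285 to 831 higher and 22 to 230 lower. The deviations of same-numbered wild type and affected males had correlations of -0.14, 0.29 and 0.32. Those of differently numbered males ran from -0.43 to 0.27. With 3 males per group, these values cannot decide whether equal numbers mark a shared batch or pairing. A replicate block gave 174 calls over the 6 male arrays, 161 higher and 13 lower, and 1114 over 12 arrays. Calls of the interaction stayed at 0 under each of these settings that could be fitted. Under every setting 68 of the 878 calls were kept. Of the 190 calls that the naming rule selects, including those not described in the text, 35 were kept and 0 changed direction. Medians of 12 lists turned sign under quantile normalization and of 14 with centred arrays. The cause of these shifts was not tested. Signals near the floor limit what can be seen of weakly expressed genes. The female arrays left out in turn, and the list counts under the fits with fewer arrays, were chosen after seeing the data.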
